A study of Homo sapiens with 6 samples.

Results

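Human embryonic stem cells of the H1 line that carried Dicer S1344L in the hemizygous state were compared with cells of wild-type Dicer. The comparison takes 4 of the 6 libraries of the study, 2 labelled hemizygous and 2 labelled wild-type, and all 16199 rows of the gene count table. In the hemizygous genotype, which the labels write as pm/fs, the allele with S1344L (leucine in place of serine) stands over a second allele taken here to be a frameshift, so the hemizygous cells differ from wild-type at both copies of DICER1. The other 2 libraries came from cells homozygous for S1344L and were used here only for the spread between libraries and as levels set beside the rest. All 3 genotypes are of the H1 line, had grown for 10 days in medium without doxycycline and were exposed 2 times to ultraviolet light of 254 nm at 150 mJ/cm2. Each sample took 2 dishes of 15 cm, and the RNA bound by Ago2 was pulled down by iCLIP, a method that crosslinks a protein to the RNA it touches and sequences what stays bound. Whether libraries with the same genotype are separate cultures or clones is not stated in the labels, nor what the doxycycline controlled. All p-values therefore rest on the scatter of these libraries alone, which may be technical.

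Dicer, an RNase III enzyme, turns a hairpin precursor into a microRNA duplex. One of its RNase III domains cuts the strand that holds the 5p arm and the other cuts the strand that holds the 3p arm. An Argonaute protein such as Ago2 keeps an arm of the duplex and pairs its bases 2 to 8, the seed, with messenger RNAs, which are then repressed by TNRC6 proteins and the deadenylases and decapping enzymes they recruit. The substituted serine lies in the part of Dicer that carries the first RNase III domain, and mutations at the position recur in tumours. Counts in iCLIP libraries depend both on how much of an RNA is present and on how much of it is bound, and these cannot be told apart in this table.

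Described targets were grouped by the arm that acts as guide, and the mature guides named below are shown because the 4 target lists rest on their seeds. All 15 guides looked up were found in the RefSeq microRNA table of build GRCh38.p14. They are printed 5′ to 3′ with the seed in capitals. The first group are 5p guides of the let-7 family. miR-4458, in the same group by its seed, lies inside MIR4458HG, a host gene described further on.
let-7a-5p: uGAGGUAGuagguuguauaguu
let-7f-5p: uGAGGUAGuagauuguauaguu
miR-98-5p: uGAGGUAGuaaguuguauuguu
miR-4458: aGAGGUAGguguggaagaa
Of 2370 mature microRNAs in that table, 11 carry the let-7 seed. The second group, also 5p guides, are members of the miR-17 family, whose seed is carried by 8 mature microRNAs.
miR-17-5p: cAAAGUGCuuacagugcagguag
miR-20a-5p: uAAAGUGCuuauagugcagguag
miR-93-5p: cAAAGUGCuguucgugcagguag
miR-106b-5p: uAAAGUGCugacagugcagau
The third group are 3p guides of the miR-302 and miR-372 clusters, which are abundant in pluripotent cells. Their seed is carried by 12 mature microRNAs.
miR-302a-3p: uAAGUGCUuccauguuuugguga
miR-302b-3p: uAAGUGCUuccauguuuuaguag
miR-302d-3p: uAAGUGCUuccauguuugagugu
miR-372-3p: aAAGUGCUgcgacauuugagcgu
The last group are 3p guides of the miR-92 and miR-25 family, with a seed carried by 6 mature microRNAs. miR-17 and miR-92a come from the same primary transcript, so that transcript gives guides from both arms.
miR-92a-3p: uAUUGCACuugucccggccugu
miR-25-3p: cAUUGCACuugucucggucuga
miR-363-3p: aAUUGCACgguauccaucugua

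The libraries held 38.2 M to 52.9 M counts. edgeR's quasi-likelihood test called 0 of the 16199 genes at a Benjamini-Hochberg adjusted p under 0.05 (0.0% called), and limma-voom also called 0. DESeq2 called 7 genes (0.0432% of those tested), 3 higher (0.0185%) and 4 lower (0.0247%) in hemizygous cells. At an unadjusted p under 0.05, edgeR gave 141 genes (0.87%), 74 higher and 67 lower. In 2809 genes (17.3%) both hemizygous libraries lay on the same side of both wild-type libraries, above them in 1317 (8.13%) and below them in 1492 (9.21%). Levels below are CPM, the counts of a library scaled to a common total with TMM factors, and are given in the order of replicate 1 and 2.

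The same comparison was made within each replicate number, as the log2 ratio of hemizygous replicate 1 over wild-type replicate 1 and of replicate 2 over replicate 2. The 2 pairs share no library. Across the 16199 genes, which are not independent replicates, the 2 log2 differences correlated at a Pearson r of 0.22. They had the same sign in 55.3% of genes, both above 0 in 4332 (26.7%) and both below 0 in 4623 (28.5%). The log2 differences of each pair had an SD of 0.29 across genes. Both pairs exceeded 0.5 in 110 genes (0.679%) and lay under -0.5 in 76 (0.469%). Past 1, a factor of 2, the counts were 9 genes above (0.0556%) and 15 below (0.0926%), and 4 genes passed it in opposite directions. The gap between replicate 1 and replicate 2 of a genotype was larger than the gap between genotypes, with an SD across genes of 0.49 in wild-type and 0.52 in hemizygous libraries.

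**Figure D1:**
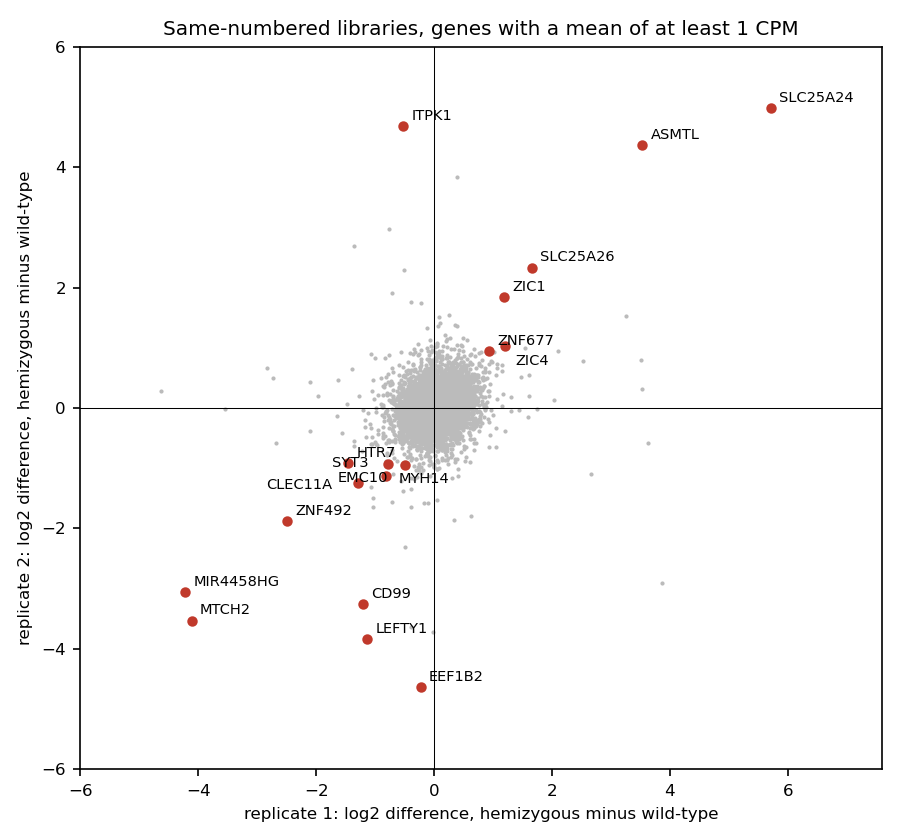
Log2 difference of hemizygous minus wild-type for replicate 1 (x axis) and replicate 2 (y axis), 1 point for each gene with a mean of at least 1 CPM (15084 genes, r = 0.23), with selected genes in red. Most genes form a round cloud at 0, while ASMTL, ZIC1 and ZNF677 lie to the upper right and MIR4458HG, ZNF492, HTR7 and genes of chromosome 19 such as MYH14 and CLEC11A to the lower left; ITPK1 and EEF1B2 lie far from 0 in replicate 2 only.

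DICER1 stood at 169 and 126 CPM in wild-type and at 118 and 96.4 CPM in hemizygous libraries. In homozygous libraries it stood at 129 and 118 CPM, and hemizygous minus homozygous was -0.20 (SE 0.19) on the log2 scale. Both hemizygous libraries lay below both wild-type libraries, and the replicate 1 and replicate 2 differences were -0.52 and -0.39 on the log2 scale. The fitted log2 fold change was -0.46 (SE 0.19), and the adjusted p of edgeR's quasi-likelihood fit over all genes was 1.00 (0.0456 before adjustment). A count over the whole gene does not show which allele the reads came from, so it does not check the labels. Genes next to DICER1 on chromosome 14 did not share its value. On the other strand and overlapping it, DICER1-AS1 stood at 0.01 (SE 0.52). CLMN stood at -0.11 (SE 0.36) and GLRX5 at -0.13 (SE 0.14). On the far side of DICER1, SERPINA5 stood at 0.07 (SE 0.34) and DDX24 at -0.05 (SE 0.23). The next measured gene there was MOAP1, described further on, at -3.97 (SE 0.38). The use of strand in the counting is not stated, so reads of DICER1 and DICER1-AS1 in their overlap cannot be told apart.

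The other 16 measured genes of microRNA processing stayed within -0.14 and 0.22. For DROSHA, which cuts the primary transcript in the nucleus, the log2 value was 0.12 (SE 0.15), and for its partner DGCR8 -0.03 (SE 0.12). Dicer's own partners TARBP2 and PRKRA had 0.04 (SE 0.17) and 0.08 (SE 0.12). Of the whole list of 17, 11 lay above 0 and 6 below, with a median of 0.02 against -0.003 over all genes tested.

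Argonaute and silencing effectors lay above 0 in 18 of 28 genes, with a median of 0.03. The median was 0.08 in replicate 1 and -0.05 in replicate 2, so the 2 pairs pointed in opposite directions. AGO2, the protein targeted by the antibody, stood at 218 and 222 CPM in wild-type and 277 and 231 CPM in hemizygous libraries. AGO1, another Argonaute, stood at 170 and 151 against 210 and 184 CPM, a log2 fold change of 0.29 (SE 0.18). The TNRC6 scaffold proteins, which link Argonaute to the deadenylases, went separate ways. TNRC6A stood at 15.6 and 8.11 CPM in wild-type and 6.75 and 7.91 CPM in hemizygous libraries (log2 fold change -0.70, SE 0.34), and TNRC6B at 63.7 and 86.5 against 87.6 and 89.8 CPM (0.24, SE 0.18). In the TNRC6A values the distance came from wild-type replicate 1, since the replicate 2 libraries differed by only -0.04. DCP2, the decapping enzyme, stood at 297 and 270 against 350 and 309 CPM (0.22, SE 0.14). edgeR called 0 genes of both lists.

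ASMTL, a gene of the first pseudoautosomal region with a methyltransferase-like domain, had the smallest p of the table. It stood at 1.00 and 0.793 CPM in wild-type, 12.1 and 17.3 CPM in hemizygous and 0.771 and 0.714 CPM in homozygous libraries. The hemizygous libraries stood apart from the other 4. It differed from wild-type by a log2 fold change of 4.02 (SE 0.30), with 3.54 in replicate 1 and 4.37 in replicate 2, an adjusted p of 0.0694 by edgeR and of 7.38e-28 by DESeq2. Against homozygous cells, a comparison that shares the hemizygous libraries, it was 4.30 (SE 0.30). Reads of its antisense RNA ASMTL-AS1 may be included.

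Other measured genes of the first pseudoautosomal region did not share a direction. PLCXD1, a phospholipase C-like protein, stood at 4.47 and 5.73 CPM in wild-type and 6.83 and 10.6 CPM in hemizygous libraries (log2 fold change 0.78, SE 0.28). CD99, a surface glycoprotein, stood at 8.43 and 10.8 against 3.62 and 1.08 CPM (-2.04, SE 0.95). SLC25A6, the gene before ASMTL, had -1.07 in replicate 1 and 0.90 in replicate 2, and GTPBP6 had -0.20 and -0.06.

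ZNF677, a zinc finger protein with a KRAB repressor domain, was the second gene called higher by DESeq2. It stood at 24.8 and 20.0 CPM in wild-type, 47.5 and 38.4 CPM in hemizygous and 27.9 and 23.5 CPM in homozygous libraries. The difference was 0.94 in each of the pairs, and the fitted log2 fold change was 0.94 (SE 0.19), with an adjusted p of 0.0455 by DESeq2 and 1.00 by edgeR. Its 5 measured neighbours on each side, 8 of them in all with a ZNF symbol, ranged from -0.01 to 0.25.

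MIR4458HG, the host gene of miR-4458, was among the 4 genes called lower by DESeq2. It had 192 and 136 counts in wild-type libraries (3.70 and 3.48 CPM) and 6 and 20 counts in hemizygous libraries (0.156 and 0.380 CPM). In homozygous libraries it stood at 0.463 and 1.01 CPM, so all 4 mutant libraries lay below both of wild-type. The log2 fold change was -3.68 (SE 0.53), with an adjusted p of 5.49e-06 by DESeq2, and its neighbours SEMA5A and FASTKD3 had -0.18 and 0.01.

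MOAP1, a protein that binds BAX in apoptosis, fell to the level of a few reads. It had 89 and 72 counts in wild-type and 5 and 5 counts in hemizygous libraries, which is 1.72 and 1.84 against 0.130 and 0.0949 CPM. The homozygous libraries, at 0.859 and 1.03 CPM, lay between. On the log2 scale the fold change was -3.97 (SE 0.38), with an adjusted p of 7.19e-06 by DESeq2 and 0.178 by edgeR. MOAP1 lies on the same chromosome as DICER1, at a distance of 1904 kb, with DDX24 and SERPINA5 the measured genes between them.

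HTR7, a serotonin receptor that raises cyclic AMP, stood at 25.5 and 25.6 CPM in wild-type and 9.26 and 13.5 CPM in hemizygous libraries. That is a log2 fold change of -1.16 (SE 0.21), with -1.46 and -0.92 in the pairs and an adjusted p of 0.00952 by DESeq2. Its level in homozygous libraries, 8.02 and 8.99 CPM, was as low. Of 17 measured serotonin and other G protein coupled receptors, 9 lay above 0 and 8 below, with no common direction in the class. CALCR, the calcitonin receptor, stood at 3.72 and 5.04 against 6.49 and 8.18 CPM (0.75, SE 0.24), with no call by any of the 3 tools.

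ZNF492, another KRAB zinc finger gene, stood at 2.28 and 1.30 CPM in wild-type, 0.365 and 0.323 CPM in hemizygous and 2.56 and 1.99 CPM in homozygous libraries. Against wild-type this is a log2 fold change of -2.38 (SE 0.40), with an adjusted p of 0.0206 by DESeq2. ZNF849P, the next measured gene on chromosome 19 and a pseudogene, stood at 1.18 and 0.640 against 0.156 and 0.114 CPM (-2.76, SE 0.49). The following genes of the cluster, ZNF730 and ZNF724, had 0.20 and 0.26, and ZNF43 on the other side 0.06. Zinc finger genes of such clusters resemble each other in sequence, so reads may have been shared among them.

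**Figure D2:**
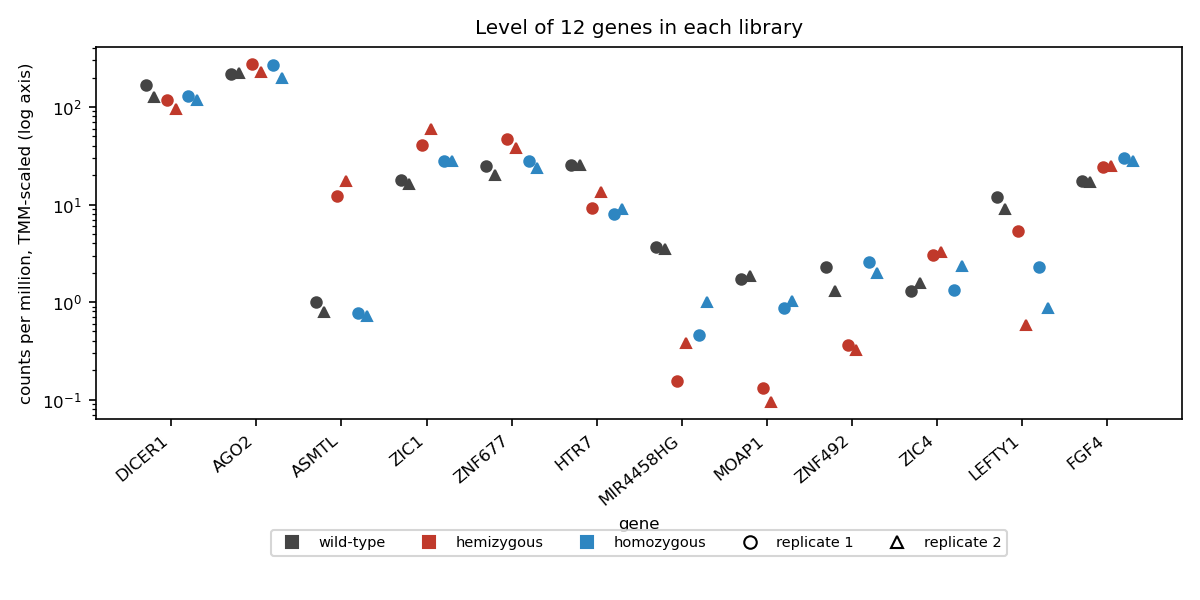
Level of 12 genes in each of the 6 libraries, in TMM-scaled CPM on a log axis; colours give the genotype and shapes the replicate, with no averaging. ASMTL is high only in the hemizygous libraries, ZIC1 and ZNF677 are highest there, MOAP1 and ZNF492 are lowest there, and HTR7 and MIR4458HG are low in both mutant genotypes.

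ZIC1, which acts as a transcription factor in the neural plate and dorsal neural tube, was the third gene called higher by DESeq2. It stood at 17.9 and 16.3 CPM in wild-type, 41.0 and 58.9 CPM in hemizygous and 28.2 and 28.0 CPM in homozygous libraries. The order of genotypes was the same in each replicate, with no overlap. Its log2 fold change was 1.54 (SE 0.20), with 1.19 and 1.85 in the pairs and adjusted p-values of 1.34e-07 by DESeq2 and 0.71 by edgeR. ZIC4, its neighbour on chromosome 3 and transcribed the opposite way, stood at 1.29 and 1.59 against 3.02 and 3.28 CPM. The value for ZIC4 was 1.13 (SE 0.34), with 1.20 and 1.03 in the pairs and an unadjusted p of 0.0134, and it was not called. ZIC2 and ZIC5, on another chromosome, stood near 0, with ZIC2 at 0.04 (SE 0.16) and ZIC5 at 0.02 (SE 0.19). The next measured genes on either side of the ZIC4 and ZIC1 pair, PLSCR1 and UBQLN4P1, had -0.02 and 0.18.

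Because ZIC1 and its neighbour ZIC4 lay on the same side in both pairs, 250 bases before a start of each are shown, from the RefSeq promoter table on GRCh38.p14, 5′ to 3′ on the strand of the gene with each CG in capitals. For ZIC1 the start is the first base of the gene. For ZIC4 the table's stretch lies inside the annotated gene, which reaches from 147386046 to 147406543, so it is not the sequence before the outermost start. They lie at chr3:147409115-147409364 (ZIC1, plus strand) and chr3:147392383-147392632 (ZIC4, minus strand).
ZIC1: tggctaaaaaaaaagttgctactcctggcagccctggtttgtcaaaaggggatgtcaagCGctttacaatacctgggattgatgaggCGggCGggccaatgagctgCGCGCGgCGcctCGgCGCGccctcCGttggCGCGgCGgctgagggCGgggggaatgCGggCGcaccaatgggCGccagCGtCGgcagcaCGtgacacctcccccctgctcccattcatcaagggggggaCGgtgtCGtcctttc
ZIC4: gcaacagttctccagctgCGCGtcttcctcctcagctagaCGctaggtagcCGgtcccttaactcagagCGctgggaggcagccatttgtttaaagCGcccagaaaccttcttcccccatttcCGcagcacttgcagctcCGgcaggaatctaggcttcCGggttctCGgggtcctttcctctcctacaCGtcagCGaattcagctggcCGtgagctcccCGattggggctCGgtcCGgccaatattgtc
The ZIC1 stretch holds 23 CG and 64.4% G or C, and the ZIC4 stretch 16 CG and 58.8%. Of 27305 promoters of that length, 25.4% hold at least as many CG as ZIC1 and 40.8% at least as many as ZIC4. Both hold CCAAT on either strand, as 33.0% of promoters do, and neither holds TATAAA, which 11.1% do.

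Several genes of a single stretch of chromosome 19 were among those with the smallest p or the largest differences in both pairs. Of the 18 genes named as lower by rank, 6 lie on chromosome 19, which holds 6.7% of the table, and 4 of these lie within 522 kb. The stretch from MYH14 to CLEC11A, at chr19:50203622-50725708 on GRCh38.p14, was chosen after these values were seen, so it is a description with no test. Of its 15 measured genes, 13 lay below 0, 12 of them in both pairs, and the median log2 fold change was -0.86, with -0.78 in replicate 1 and -0.93 in replicate 2. In 10 genes both hemizygous libraries lay below both wild-type libraries (9.21% of the table), in 1 they lay above (8.13%), and 9 had an unadjusted p under 0.05 (0.87%). None was called by edgeR in the fit of genotype means over all libraries (0.0% called), nor by DESeq2. The 54 measured genes within 1 Mb on either side had a median of -0.03, with 32 below 0 and, without overlap, 4 lower and 4 higher, to be read against the same shares of the table.

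The stretch runs over genes of unrelated function. MYH14, the heavy chain of a nonmuscle myosin, opens it. It stood at 54.5 and 70.6 CPM in wild-type, 31.8 and 37.1 CPM in hemizygous and 67.1 and 63.2 CPM in homozygous libraries (log2 fold change -0.86, SE 0.17). Further on, NAPSA, an aspartic protease, stood at 0.848 and 0.972 against 0.417 and 0.531 CPM (-0.92, SE 0.35). A group of 4 genes then stood closer to 0. These were NR1H2, the nuclear receptor LXR-beta (0.36, SE 0.18), POLD1, the catalytic subunit of DNA polymerase delta (-0.20, SE 0.16), SPIB, an ETS factor (0.19, SE 0.30), and MYBPC2, a muscle protein (-0.05, SE 0.28).

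Low values resumed with GARIN5A (-0.80, SE 0.31), which overlaps EMC10. EMC10, a subunit of the complex that inserts proteins into the endoplasmic reticulum membrane, stood at 84.8 and 89.2 CPM in wild-type, 59.8 and 46.0 CPM in hemizygous and 99.5 and 92.8 CPM in homozygous libraries (-0.72, SE 0.16). JOSD2, a deubiquitinase, stood at 0.848 and 1.02 against 0.313 and 0.342 CPM (-1.50, SE 0.40). Synaptic genes followed, with SYT3, a synaptotagmin, at 5.71 and 9.98 against 3.23 and 4.55 CPM (-0.81 and -1.12 in the pairs), LRRC4B, an adhesion protein (-1.15, SE 0.63), and SHANK1, a postsynaptic scaffold (-1.06, SE 0.59). C19orf81 (-1.46, SE 0.55) overlaps both SYT3 and SHANK1. CLEC11A, a secreted lectin that acts as a growth factor, closes the stretch at 4.42 and 7.70 against 1.77 and 3.23 CPM (-1.27, SE 0.45). IZUMO2, the measured gene 51.1 kb before MYH14, had -0.60 (SE 0.41).

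Set against the homozygous libraries, in a comparison that shares the hemizygous ones, all 15 genes lay below 0 with a median of -0.96, while 40 of the 54 genes around them lay below 0 with a median of -0.11. The median of the stretch against wild-type was -0.54 with 10 genes below 0 without wild-type replicate 2, and LRRC4B and SHANK1 then stood at 0.052 and 0.054. It ranged from -1.18 to -0.74 without each of the other libraries in turn. Windows of 11 neighbouring genes of at least 5 CPM over the genome had medians from -0.25 to 0.20 across 11200 windows, and most genes of the stretch are too low in counts to enter those windows.

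**Figure D3:**
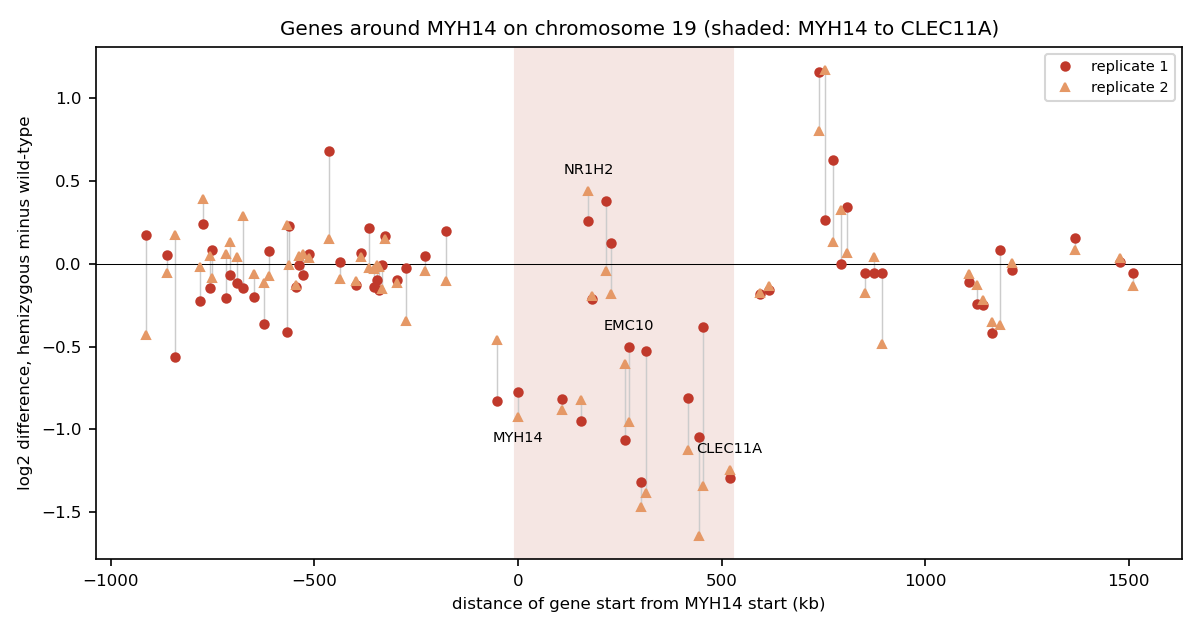
Log2 difference of hemizygous minus wild-type in replicate 1 (circles) and replicate 2 (triangles) for each measured gene within 1 Mb of the stretch from MYH14 to CLEC11A (shaded), by distance of the gene's start from that of MYH14 in kb. Inside, 12 of 15 genes lie below 0 in both replicates, with NR1H2 above 0 in both; outside, the 54 genes have a median of -0.03.

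Both lists of described targets of 5p guides had medians above 0 in replicate 1 and below 0 in replicate 2. Of 36 measured let-7 targets, 23 lay above 0 and 13 below, with a median of 0.05 over the fit, 0.11 in replicate 1 and -0.03 in replicate 2. Both pairs were above 0 in 11 of them and below 0 in 6. Without overlap 5 were higher (13.9% against 8.13% of the table) and 1, DICER1, was lower (2.78% against 9.21%). The classical let-7 targets HMGA2, a chromatin protein, and TRIM71, an RNA-binding ubiquitin ligase, had 0.01 (SE 0.12) and -0.04 (SE 0.14). CDK6, a kinase of the G1 phase, stood at 80.8 and 64.0 CPM in wild-type and 94.2 and 89.1 CPM in hemizygous libraries (0.34, SE 0.15). FIGN, a microtubule-severing enzyme, stood at 48.6 and 54.7 against 62.1 and 62.7 CPM (0.27, SE 0.13). Of 34 miR-17 family targets, 16 lay above 0 and 18 below, with a median of 0.00, 0.06 in replicate 1 and -0.03 in replicate 2. Without overlap 3 of them were higher and 3 lower (8.82% each). PKD2, a calcium channel repressed by this family, stood at 71.1 and 67.9 against 88.7 and 74.9 CPM (0.23, SE 0.14). edgeR and DESeq2 called 0 genes of both lists.

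Among targets of 3p guides the families differed in sign. Of 33 miR-302 and miR-372 targets, 13 lay above 0 and 20 below, with a median of -0.03, and both pairs were below 0 in 11. Without overlap 2 were higher (6.06% against 8.13% of the table) and 5 lower (15.2% against 9.21%). The lowest of the 33 were LEFTY1 and LEFTY2, secreted inhibitors of Nodal. LEFTY1 stood at 11.9 and 9.01 CPM in wild-type and 5.40 and 0.588 CPM in hemizygous libraries (-1.82, SE 0.90), and LEFTY2 at 14.6 and 5.63 against 6.88 and 2.24 CPM (-1.16, SE 0.72). Homozygous libraries were also low, at 2.31 and 0.862 CPM for LEFTY1 and 5.62 and 2.02 CPM for LEFTY2. The hemizygous replicates of LEFTY1 lie further apart than the genotypes, and the LEFTY2 groups overlap. In the pairs the differences were -1.14 and -3.84 for LEFTY1 and -1.08 and -1.31 for LEFTY2. LATS2, a Hippo pathway kinase and described target of miR-372, had 0.14 (SE 0.17).

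Of 22 targets of miR-92 and miR-25, 16 lay above 0 and 6 below, with a median of 0.11. This was seen in each replicate, with 0.09 and 0.14, and 14 of the 22 were above 0 in both pairs, where 26.7% of all genes were. Other lists also had medians above 0 in both pairs, such as the 8 measured genes of the naive state with 0.15 and 0.17. MYLIP, the ubiquitin ligase that removes the LDL receptor, stood at 88.4 and 77.7 CPM in wild-type and 119 and 93.3 CPM in hemizygous libraries (0.35, SE 0.16). BCL2L11, the apoptosis inducer BIM, stood at 35.5 and 33.6 against 42.7 and 37.7 CPM (0.22, SE 0.14). For these 2 genes both hemizygous libraries lay above both of wild-type, which was so for 4 of the 22 (18.2% against 8.13% of the table). They lay below both of wild-type for 1 of the 22 (4.55% against 9.21%). edgeR and DESeq2 called 0 of the 22. The lists share members, such as BCL2L11 between the miR-17 and miR-92 lists and BTG2 between the miR-302 and miR-92 lists. CDKN1A, TGFBR2, RBL2, CCND1, CCND2, TNFAIP1 and ZNFX1 are in both the miR-17 and the miR-302 lists, whose seeds overlap in sequence. These lists therefore do not cleanly separate targets of 5p guides from targets of 3p guides. All are described targets, not sites measured here.

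Of 28 host genes of microRNAs, MIR4458HG among them, 14 lay above 0, with a median of 0.00. MIR17HG, which carries miR-17 and miR-92a, stood at 16.5 and 23.5 CPM in wild-type and 19.2 and 28.9 CPM in hemizygous libraries (0.27, SE 0.32). MIR302CHG, the host of the miR-302 cluster, had -0.11 (SE 0.28). The 8 microRNA hairpins with a row of their own summed to 20.4 and 21.0 CPM in wild-type and 19.4 and 21.1 CPM in hemizygous libraries.

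**Figure D4:**
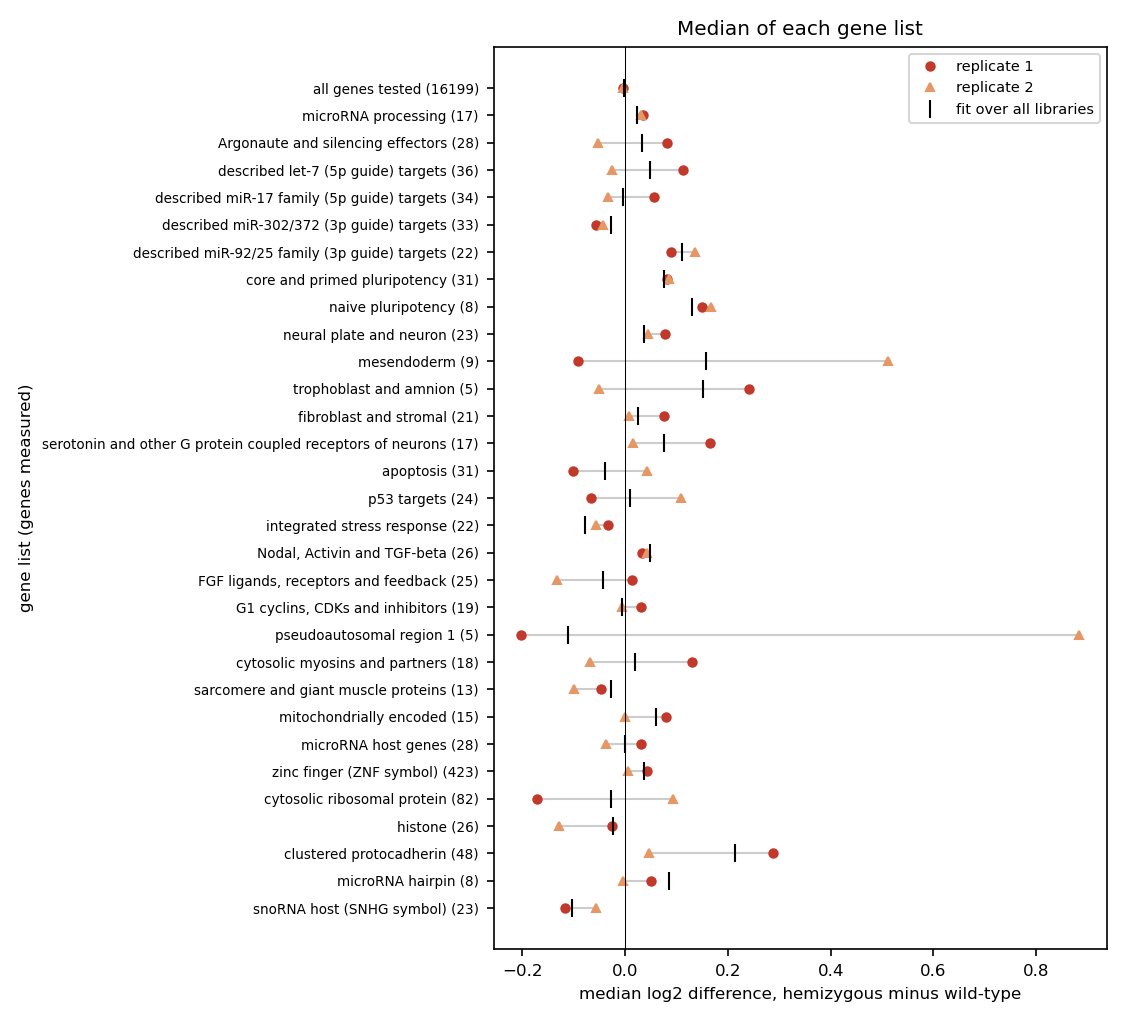
Median log2 difference of hemizygous minus wild-type over each of 30 gene lists and over all genes, for replicate 1 (circles), replicate 2 (triangles) and the fit over all libraries (bars), with the number of genes measured in brackets. Most medians lie within 0.1 of 0. The miR-92 and miR-25 targets lie above 0 in both replicates, as do other lists such as the naive and the core pluripotency genes. Ribosomal protein genes have opposite signs in the 2 replicates.

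Markers of the labelled cell type were present in both genotypes. POU5F1, the pluripotency factor OCT4, stood at 87.9 and 88.0 CPM in wild-type and 84.4 and 128 CPM in hemizygous libraries. NANOG stood at a log2 fold change of 0.15 (SE 0.19) and SOX2 at 0.10 (SE 0.15). Without hemizygous replicate 2, POU5F1 stood at -0.060 and SOX2 at -0.027, and without wild-type replicate 2 NANOG stood at -0.056. Of 31 core and primed genes 22 lay above 0, 15 in both pairs, with a median of 0.08 in the fit and 0.08 and 0.09 in the pairs. The list summed to 17028 and 17081 CPM in wild-type and 19149 and 17980 CPM in hemizygous libraries. Of the markers of other cell types, 8 of 18 were measured for the naive state, with sums of 64.2 and 49.1 CPM in wild-type and 72.5 and 58.9 CPM in hemizygous libraries. For mesendoderm 9 of 22 were measured, summing to 324 and 301 against 388 and 429 CPM, of which KDR alone gave 257 and 276 against 333 and 393 CPM, and for trophoblast and amnion 5 of 17, at 62.1 and 71.4 against 58.8 and 67.9 CPM. Neural markers, 23 of 40, summed to 1063 and 1004 against 1159 and 1033 CPM. Defining genes of these types such as TBXT, SOX17, CDX2 and PAX6 were not among the rows analysed. In bulk libraries, fewer cells of a type and less RNA per cell cannot be told apart.

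FGF4, a growth factor that pluripotent cells secrete, stood at 17.5 and 17.0 CPM in wild-type, 24.0 and 25.1 CPM in hemizygous and 30.2 and 28.3 CPM in homozygous libraries. Hemizygous exceeded wild-type cells by 0.51 on the log2 scale (SE 0.13), with 0.45 and 0.56 in the pairs and an unadjusted p of 0.00678. FGF2, the ligand that stem cell media supply, stood at 366 and 257 against 461 and 382 CPM (0.44, SE 0.23). Some feedback inhibitors and targets of the pathway had values below 0, none of them called, while the inhibitors SPRED1 and SPRED2 stood at 0.08 (SE 0.17) and -0.01 (SE 0.12). ETV4, an ETS factor induced by FGF signalling, stood at 191 and 254 against 156 and 159 CPM (-0.50, SE 0.16). SPRY1 and SPRY2, inhibitors induced by the pathway, stood at 97.3 and 88.8 against 78.7 and 64.3 CPM (-0.38, SE 0.17) and at 77.5 and 71.1 against 66.8 and 43.1 CPM (-0.44, SE 0.21). DUSP6, a phosphatase that removes ERK activity, stood at 29.9 and 27.0 against 27.3 and 15.8 CPM (-0.40, SE 0.30). Of the 25 genes of the list 17 lay below 0, with a median of 0.01 in replicate 1 and -0.13 in replicate 2, and without overlap 6 were lower (24.0% against 9.21% of the table) and 3 of the 25 higher (8.13% of the table). None was called by edgeR.

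In the Nodal and Activin pathway the LEFTY genes were the lowest of 26 members, of which 16 lay above 0. SKIL, a repressor of SMAD signalling, stood at 272 and 147 CPM in wild-type and 371.8 and 304 CPM in hemizygous libraries (0.69, SE 0.30). NODAL itself stood at 53.8 and 14.4 against 42.8 and 22.7 CPM, where replicate 1 lay above replicate 2 in both genotypes by more than the genotypes differed. TDGF1, the Nodal co-receptor, stood at 745 and 636 against 747 and 828 CPM (0.19, SE 0.14).

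Of 23 neural plate and neuron genes 15 lay above 0, and 5 had an unadjusted p under 0.05, all higher (0.457% of the table). Apart from the ZIC genes these were DCX, FABP7 and GAP43. DCX, which binds microtubules in migrating neurons, stood at 3.28 and 3.30 CPM in wild-type and 5.58 and 5.58 CPM in hemizygous libraries. FABP7, a lipid carrier of radial glia, stood at 2.99 and 2.99 against 4.22 and 5.81 CPM. GAP43, a growth cone protein, stood at 32.0 and 24.1 against 43.9 and 39.2 CPM (0.57, SE 0.17). The median of the list was 0.04, and FEZF1 and DLL3, expressed in the early neural plate, stood at -0.21 (SE 0.13) and -0.13 (SE 0.15). This list was already known to hold ZIC1, DCX and FABP7 as high genes when it was used. KDR, a receptor of early mesoderm, stood at 257 and 276 against 333 and 393 CPM (0.45, SE 0.14), and PDGFRA at 1.16 and 0.870 against 2.48 and 1.48 CPM (0.95, SE 0.37).

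Clustered protocadherins, adhesion proteins made from 3 gene arrays with alternative first exons, lay above 0 in 34 of 48 rows with a median of 0.21. The median was 0.29 in replicate 1 and 0.05 in replicate 2. In 9 rows the hemizygous libraries lay above both wild-type libraries (18.8% against 8.13% of the table) and in 0 below (9.21% of the table). In both pairs 23 were above 0, where 26.7% of all genes were. PCDHGA6 stood at 2.55 and 3.53 CPM in wild-type and 5.35 and 5.16 CPM in hemizygous libraries (0.79, SE 0.24), and PCDHGC5 at 0.540 and 0.640 against 0.913 and 0.987 CPM (0.69, SE 0.31). Exons shared within the arrays mean that these rows are not independent of each other. edgeR called 0 of them.

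Of 423 zinc finger genes 255 lay above 0 and 168 below, with a median of 0.04. The median was 0.04 in replicate 1 and 0.01 in replicate 2. Reads may have been shared among zinc finger genes of similar sequence, so these rows may not be independent. Without overlap 67 were higher (15.8% against 8.13% of the table) and 27 lower (6.38% against 9.21%). ZNF680 is an example, at 27.6 and 22.9 CPM in wild-type and 34.1 and 32.2 CPM in hemizygous libraries (0.39, SE 0.15). Host genes of small nucleolar RNAs lay mostly on the other side, with 18 of 23 below 0 and a median of -0.10. Both pairs were below 0 in 13 of the 23, where 28.5% of all genes were. The summed level of the list went the opposite way. It was 3834 and 3274 CPM in wild-type and 4068 and 3597 CPM in hemizygous libraries. SNHG3 stood at 100.2 and 103 against 84.5 and 86.8 CPM (-0.24, SE 0.18). Of 82 ribosomal protein genes 60 lay below 0, but the median was -0.17 in replicate 1 and 0.09 in replicate 2, and only 9 were below 0 in both pairs.

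Genes of stress and cell death gave small values apart from MOAP1. Of 31 apoptosis genes 19 lay below 0 with a median of -0.04, but the median was -0.10 in replicate 1 and 0.04 in replicate 2. Both pairs were below 0 in 13 and above 0 in 7. Among the lower ones HRK, a BH3-only protein, stood at 8.52 and 8.21 CPM in wild-type and 7.09 and 5.29 CPM in hemizygous libraries (-0.44, SE 0.22). BCL2L2, which opposes apoptosis, stood at 27.0 and 25.8 against 21.5 and 23.04 CPM (-0.25, SE 0.15). Of 22 genes of the integrated stress response 16 lay below 0 with a median of -0.08, and CHAC1, induced by ATF4, stood at 22.3 and 14.5 against 15.0 and 13.9 CPM (-0.35, SE 0.22). In 24 p53 targets the pairs had medians of -0.07 and 0.11. The 21 fibroblast and stromal genes had a median of 0.02, while their replicate 1 libraries exceeded replicate 2 by a median of 0.54 in wild-type and 0.60 in hemizygous cells.

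Several of the remaining genes of small p had moderate differences, most of these with close replicates. ANKRD46 stood at 29.6 and 28.3 CPM in wild-type and 43.0 and 41.6 CPM in hemizygous libraries (0.54, SE 0.13). NEB, the giant sarcomere protein nebulin, stood at 7.67 and 6.86 against 13.0 and 11.3 CPM (0.74, SE 0.18). CDC37L1, a relative of an Hsp90 co-chaperone, stood at 28.7 and 28.3 against 41.9 and 38.2 CPM (0.49, SE 0.13), and TMEM161B, a membrane protein, had 0.53 (SE 0.15). On the lower side, CYTH2, an exchange factor for ARF proteins, stood at 53.4 and 62.7 against 37.1 and 43.7 CPM (-0.52, SE 0.15). APBB1, an adaptor of the amyloid precursor protein, stood at 27.5 and 28.0 against 20.5 and 20.4 CPM (-0.44, SE 0.13), and TMEM106C at 54.2 and 38.1 against 26.1 and 27.3 CPM (-0.79, SE 0.21). Homozygous libraries stood on the same side of wild-type for ANKRD46 (42.6 and 39.0 CPM), CDC37L1 (40.9 and 40.8 CPM), CYTH2 (43.6 and 43.2 CPM) and APBB1 (18.6 and 20.2 CPM), in a comparison that shares the wild-type libraries. The same held for NEB (10.2 and 10.1 CPM) and TMEM161B (43.3 and 42.5 CPM). For TMEM106C it held narrowly, at 29.3 and 38.03 CPM against 38.14 CPM in wild-type replicate 2.

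A small group of genes differed several-fold between libraries of a genotype. The replicates of a genotype differed over 4-fold in 79 genes in wild-type and 69 in hemizygous cells. MTCH2, a protein of the outer mitochondrial membrane, stood at 35.9 and 30.8 CPM in wild-type and 2.03 and 2.62 CPM in hemizygous libraries, but at 14.4 and 2.12 CPM in homozygous ones (log2 fold change -3.83, SE 0.80). SLC25A24, a mitochondrial carrier, stood at 0.231 and 0.153 against 14.4 and 6.21 CPM, and at 5.44 and 0.123 CPM in homozygous libraries. These genes separated the groups compared, but their homozygous replicates lay several-fold apart. EEF1B2, a translation elongation factor, stood at 4.69 and 65.0 against 3.99 and 2.56 CPM, so the distance came from wild-type replicate 2. ITPK1, an inositol phosphate kinase 245 kb from MOAP1, stood at 1.33 and 1.05 against 0.913 and 28.0 CPM, so it came from hemizygous replicate 2, and without that library the value was -0.39.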

How the data were processed

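RNA recovered by Ago2 iCLIP was measured in 6 libraries of H1 cells, of which the 2 wild-type and 2 hemizygous libraries are compared here. The deposited values are whole-number counts per gene, with no normalization by the authors in that table. The genome build was hg38, per the submitters' processing notes. The sources used here do not state the aligner, the counter, the annotation, the use of strand or of molecular identifiers. The lowest row total was 132, and 0 columns were left unused. Of 16199 row names, 14750 matched a RefSeq symbol (GRCh38.p14) and 162 a synonym. Another 1243 were Ensembl identifiers for which no single RefSeq gene was found, and 44 other names matched nothing. These 1287 rows were tested but had no position, so they did not enter the results by chromosome or the genes named by rank.

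Counts were scaled with TMM factors and filtered with filterByExpr, which kept all rows. The test was edgeR's quasi-likelihood F test (version 4.0.16, run in R 4.3.3), with a mean for each genotype over all 6 libraries (3 residual degrees of freedom) and the contrast hemizygous minus wild-type. DESeq2 1.42.0 and limma-voom (limma 3.58.1) were alternatives. Standard errors follow from each fold change and the F statistic. Differences of same-numbered libraries are log2 ratios of TMM-scaled CPM with a prior count of 2 and have no test. The scripts were tested on simulated counts. No set test was run: lists are given by counts and medians. At this depth counting error matters mainly for genes near 1 CPM and below.

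The members and lists were chosen with earlier results of these data known. Named genes are DICER1 and AGO2, each gene called by any tool, per direction the 12 genes of smallest p without overlap of the groups and the 10 with the largest difference seen in both pairs (each with a mean of at least 1 CPM), up to 5 measured neighbours of called genes, and list members as examples. Other genes of the chromosome 19 stretch were named after their values were seen. Same-numbered libraries deviated together (correlation of deviations 0.74 between wild-type and hemizygous), but the labels do not say what a number marks.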

Additional observations from a re-analysis of the deposited data

How the results depend on the processing

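The number of called genes, 0 by edgeR's quasi-likelihood test, was also 0 with RLE, upper-quartile or library-size scaling, with no filter, with a filter of 20 counts in 2 libraries, with limma-voom and with the 4 compared libraries alone. DESeq2 called 7. When the replicate number entered as a block the count was 1, ASMTL, with all 6 libraries, and 39 (19 higher, 20 lower) with the 4 compared libraries and the block, a fit with 1 residual degree of freedom. Those 39 hold MYH14, EMC10, SYT3 and CLEC11A, 4 of the 15 genes of the chromosome 19 stretch. The cause of the difference was not tested. With 2 numbers the data cannot establish the pairing, so these counts are a hint only. Leaving out each library gave counts from 0 to 2, with EEF1B2 called without wild-type replicate 1, ASMTL and ITPK1 without hemizygous replicate 1, and ASMTL and ZNF560 without hemizygous replicate 2. The lone library was assumed to vary like the others.

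Of 89 genes followed over 16 alternatives, 8 changed sign at least once, in 10 fits. Over the libraries left out in turn, the log2 fold change ranged from -0.39 to 4.56 for ITPK1, from -0.060 to 0.55 for POU5F1, from -0.027 to 0.23 for SOX2, from -0.056 to 0.41 for NANOG, from -0.059 to 0.41 for SPIB, from -1.79 to 0.052 for LRRC4B, from -1.69 to 0.054 for SHANK1 and from -0.35 to 0.34 for MYBPC2, which stood at 0.013 by limma-voom and 0.13 without hemizygous replicate 1. The median from MYH14 to CLEC11A, followed after seeing the data, ranged from -0.87 to -0.81 under other scalings, filters, tools and blocks, and from -1.18 to -0.54 over the libraries left out. Depth limits MOAP1, MIR4458HG and ZNF492, which had 5 to 20 counts in hemizygous libraries.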

Other observations

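Medians of the chromosomes over genes of at least 1 CPM ran from -0.05 on chromosome 22 to 0.03 on chromosome 13. On chromosome 22, 221 of 328 genes lay below 0, 145 lay below 0 in both pairs against 52 above, and 17.4% were lower without overlap against 9.21% of the table. Among windows of 11 neighbouring genes, the smaller of the pair medians reached 0.18 between TATDN3 and KCTD3 on chromosome 1. On the low side it reached -0.19 on chromosome 19, in overlapping windows such as MVB12A to KCNN1, where 11 of 11 genes lay below 0. A window of mostly zinc finger genes on chromosome 19, from ZNF682 to ZNF708, had a median of 0.13 with 0 of 11 genes below 0 and pair medians of 0.24 and 0.16.

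Other genes high or low in both pairs were spread over the genome. PTPN20, a tyrosine phosphatase, stood at 0.771 and 0.665 CPM in wild-type and 2.32 and 1.37 CPM in hemizygous libraries. ARHGAP17, a GTPase activator, stood at 0.848 and 1.94 against 8.47 and 5.67 CPM, and SLC25A26, the mitochondrial carrier of S-adenosylmethionine, at 2.66 and 2.71 against 8.53 and 13.8 CPM. Their homozygous replicates lay several-fold apart, at 6.01 and 1.77 CPM for ARHGAP17 and 0.793 and 3.89 CPM for SLC25A26. FAM3C2P, a pseudogene, stood at 2.10 and 2.94 against 12.3 and 5.07 CPM. DPPA5, a gene of the naive state, stood at 3.24 and 8.03 against 6.60 and 15.3 CPM, with 1.02 and 0.92 in the pairs and groups that overlap. KLRD1, a receptor of natural killer cells, stood at 0.656 and 2.38 against 2.95 and 4.65 CPM. On the lower side, ABR, a regulator of GTPases, stood at 2.47 and 1.25 against 1.17 and 0.418 CPM. TMSB4XP6, a thymosin pseudogene, stood at 49.9 and 53.5 against 38.3 and 35.1 CPM. NDUFS1, a subunit of respiratory complex I, stood at 10.6 and 2.43 against 1.62 and 1.61 CPM. Its pair values were -2.68 and -0.58, so most of the distance came from wild-type replicate 1. None of these was called by edgeR, DESeq2 or limma-voom.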
